A study of Mus musculus with 18 samples.

Results

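The genes described here move cholesterol out of cells and remodel the particles that carry it in blood, together with the sterol-sensing receptors that switch many of them on. The 9 genes were listed by function: the transporters Abcg5, Abcg8, Abca1 and Abcg1, the receptor Scarb1, the plasma proteins Pltp and Lcat, and the liver X receptors Nr1h3 and Nr1h2. Probes annotated to them under a current or older symbol were taken from mouse liver and epididymal fat. There were 10 such probes for 8 of the genes, and Nr1h2 was not analysed here. To be tested in a tissue, a probe had to be detected above the array's background (p under 0.05) on every array of some diet, which left 7 of the 9 genes among 8937 tested genes in liver and 5 among 10240 in fat.

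The measurements come from 18 Illumina bead arrays of mouse messenger RNA, 9 per tissue. In each tissue 3 arrays came from mice on a high-fat diet (20% fat and 1% cholesterol) supplemented with the plant flavonoid luteolin at 0.005% (w/w) (LU), 3 from mice on that high-fat diet alone (HFD) and 3 from mice on a normal diet (ND). All were male C57BL/6J mice, written C56BL/6J in the strain field, obtained at 4 weeks of age and kept on these diets for 16 weeks, in groups of 13 LU, 13 HFD and 10 ND mice. Whether the 3 arrays in a diet group stand for different mice is not stated in the labels. The p-values therefore measure the spread between these arrays, possibly a technical spread, and their number limits the precision. Detected probes per array numbered 15464 to 16998 in liver and 19113 to 19852 in fat, out of 45281. With the 18 arrays normalized together, 6 tested hepatocyte markers summed to a signal of 266569 to 282193 in liver arrays and 214 to 266 in fat arrays, and 7 adipocyte markers to 925 to 2161 in liver arrays and 140343 to 166201 in fat arrays.

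Cells cannot break down the sterol ring, so surplus cholesterol is exported. Liver X receptors (LXRs) pair with retinoid X receptors, are activated by oxidized cholesterol (oxysterols), and raise transcription of exporters, lipoprotein-remodelling proteins and lipid-making genes. In liver, ABCG5 and ABCG8 form a heterodimer that secretes cholesterol and plant sterols into bile. ABCA1 and ABCG1 pass cholesterol to high-density lipoprotein (HDL), LCAT esterifies it on the particle, PLTP moves phospholipid between particles, and the receptor encoded by Scarb1 takes HDL cholesterol back up into the liver.

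Abcg5 and Abcg8 lie head to head, and the bases between their starts are shown because both genes are read outward from them. In RefSeq's GRCm38.p6 annotation, Abcg5 starts on the minus strand of chromosome 17 at position 84683011 and Abcg8 on the plus strand at position 84683121, with 109 bases between. Abcg8 also has a window at another start, chr17:84676052-84676351 on the plus strand, which is not head to head with Abcg5 and is not shown. The Abcg8 window at chr17:84682871-84683170, on the plus strand, is given with those 109 bases in capitals and runs from 250 bases before its start to 50 bases from the start on.
Abcg8 window: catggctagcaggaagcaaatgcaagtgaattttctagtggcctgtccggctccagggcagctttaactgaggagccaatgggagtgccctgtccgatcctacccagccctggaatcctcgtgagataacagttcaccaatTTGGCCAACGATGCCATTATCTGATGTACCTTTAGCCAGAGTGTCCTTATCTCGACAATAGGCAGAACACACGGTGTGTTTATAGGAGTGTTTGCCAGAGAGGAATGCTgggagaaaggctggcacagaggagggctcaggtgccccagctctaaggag
The matching Abcg5 window overlapped it by 209 identical bases. GATAA, the letters bound by GATA factors, occurred 3 times in this window over both strands, with 2 of them between the starts, and 25.4% of all 32851 mouse promoter windows of this length held it. TATAAA occurred 1 time between the starts, reading towards Abcg5, and was in 13.6% of windows. A direct repeat of AGGTCA with 4 bases between the copies (DR4), the form of element to which LXR binds, was searched on both strands and was in none of the 9 windows of the 7 member genes that had a window. Nor was AGGTCA alone. All windows held these letters at 0.0152% and 16.3%, and the E-box CACGTG, absent from the Abcg5 and Abcg8 windows and held by that of Abca1, at 7.15%. Only these exact letters were counted, and so few windows held the exact DR4 that its absence here tells little. The counts therefore say nothing on LXR elements with other letters inside the windows, or on any element outside them.

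High-fat feeding was accompanied in liver by higher Abcg5, Abcg8, Abcg1 and Scarb1 and by lower Pltp. Abcg5 was 2.99-fold and Abcg8 2.66-fold higher in HFD than in ND liver. Of 7 tested members 5 passed the threshold (limma, Benjamini-Hochberg adjusted p under 0.05 over all tested genes), against 30.3% of all genes in that comparison. Of these members 4 rose, against 17.9% of all genes, and 1 fell, against 12.4%. All values below are log2 signals or log2 differences with their standard error (SE), after an offset that makes differences of dim probes smaller than the change in RNA. In whole tissue, fewer cells of a type and less RNA per cell cannot be told apart. High-fat feeding here means the diet with both 20% fat and 1% cholesterol, whose parts cannot be told apart either.

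Abcg5 read 14.16, 14.19 and 14.10 on the HFD liver arrays, against 12.58, 12.61 and 12.51 on the ND arrays. Abcg8, its partner, read 13.52, 13.46 and 13.28 in HFD liver, against 11.99, 12.05 and 12.00 in ND liver. Every HFD array was above every ND array for both genes, with a gap several times the spread within a diet. Over all tested genes in liver, 44.7% had HFD and ND arrays that did not overlap. The differences were 1.58 ± 0.06 for Abcg5 (adjusted p = 1.6e-06) and 1.41 ± 0.10 for Abcg8 (adjusted p = 3.7e-05). Both passed in all alternative settings and with any array left out.

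Abcg1, which loads cholesterol onto HDL and is abundant in macrophages, was dimmer in liver. It read 7.17, 7.46 and 7.60 in HFD liver and 6.82, 6.52 and 6.60 in ND liver, which did not overlap. The difference was 0.76 ± 0.14 (adjusted p = 0.0042), or 1.70-fold. Macrophage markers moved with it: 10 of 12 tested markers were higher in HFD than in ND liver, with a median difference of 0.57 beside 0.00 over all genes. Their summed signal was 19738 to 23051 in HFD liver and 12886 to 14117 in ND liver, and their part in the Abcg1 difference was not tested. The Abca1 probe was not detected on any of the 18 arrays, so no difference is given for this exporter.

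Scarb1 had a smaller but tight difference. It read 7.75, 7.88 and 7.77 in HFD liver and 7.38, 7.35 and 7.38 in ND liver. The lowest HFD array was above the highest ND array, and the difference was 0.43 ± 0.07 (adjusted p = 0.0026), or 1.35-fold.

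Pltp, which also enlarges HDL by transferring phospholipid, went the other way. Its signal was 7.08, 7.54 and 7.50 in HFD liver, against 8.42, 8.16 and 8.05 in ND liver. All HFD arrays were below all ND arrays, and Pltp fell by 0.84 ± 0.15 (adjusted p = 0.0037), 1.79-fold lower in HFD liver. Lcat, secreted by hepatocytes, read 12.96, 12.73 and 12.86 in HFD liver and 13.13, 13.06 and 13.14 in ND liver. The Lcat arrays did not overlap, but the difference of -0.26 ± 0.09 did not pass (adjusted p = 0.0504). It passed in 7 of 19 alternatives, among them without HFD liver replicate 1 (adjusted p = 0.046) and without LU liver replicate 3 (adjusted p = 0.036), and the other Lcat probe differed by -0.15 ± 0.09 (adjusted p = 0.27 over all detected probes).

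The receptor Nr1h3 itself showed no detected difference between these diets in liver. Its brighter probe read 12.18, 12.22 and 12.21 in HFD liver and 12.19, 12.26 and 12.24 in ND liver, with overlapping arrays. The difference was -0.03 ± 0.06 (adjusted p = 0.77), with a 95% interval of -0.16 to 0.10.

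**Figure D1:**
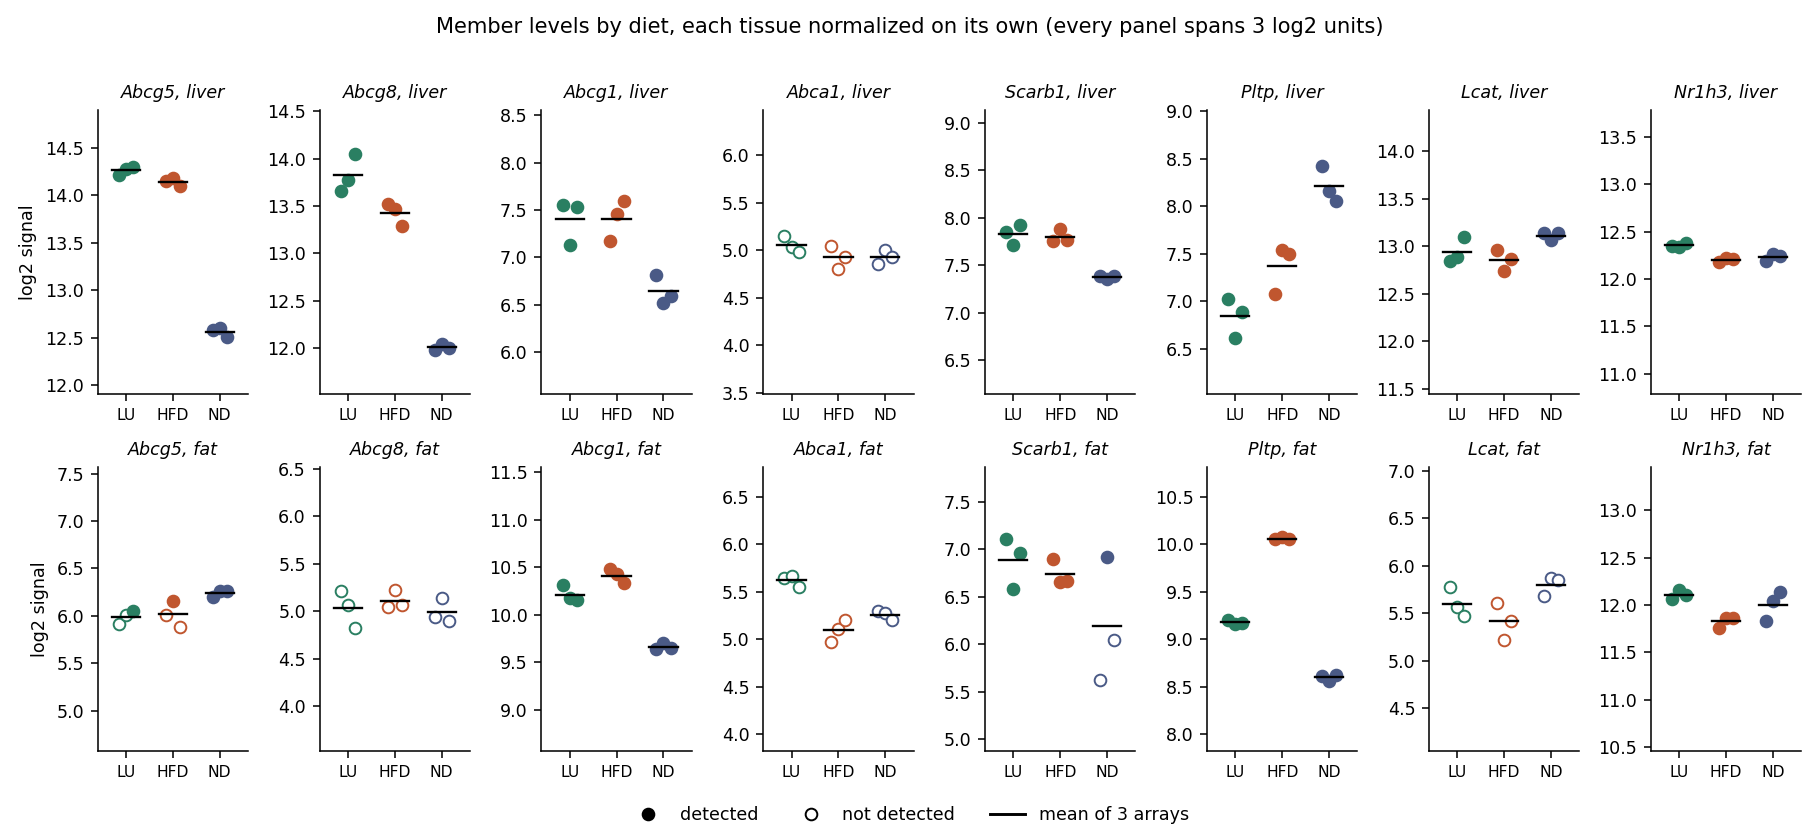
Log2 signal of the 8 members with a probe (columns) in liver (upper row) and epididymal fat (lower row), each tissue normalized separately; points are arrays of LU, HFD and ND mice, bars are means of 3 arrays and open points are undetected. In liver, Abcg5 and Abcg8 sit higher in LU and HFD arrays than in ND arrays, and Pltp sits lower. In fat, Pltp is highest in HFD arrays, and Abcg8, Abca1 and Lcat are undetected throughout.

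Luteolin with the high-fat diet left most members near their HFD level in liver. Abcg8 rose further and Pltp fell further, and the other 5 members did not pass for LU against HFD. Those 2 of 7 stand beside 17.1% of all genes. LU and HFD liver arrays did not overlap for 40.9% of all genes. LU against HFD and HFD against ND share the HFD arrays, and each comparison's values are given side by side for that reason.

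Abcg8 read 13.66, 13.78 and 14.04 in LU liver, against the HFD values of 13.52, 13.46 and 13.28 given above. No arrays overlapped, and the difference was 0.40 ± 0.10 (adjusted p = 0.029), or 1.32-fold. The call was lost on leaving out HFD liver replicate 2 or 3 or LU liver replicate 2 or 3, where differences of 0.29 to 0.43 had adjusted p = 0.059 to 0.097, and also with median scaling (adjusted p = 0.064) and with the replicate block (adjusted p = 0.061). Abcg5 read 14.21, 14.28 and 14.30 in LU liver, also above all 3 HFD arrays, but its difference of 0.12 ± 0.06 did not pass (adjusted p = 0.22, 95% interval -0.02 to 0.26). Whether the LU differences of Abcg5 and Abcg8 differ from each other was not tested.

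Pltp read 7.03, 6.61 and 6.88 in LU liver, and all 3 values were below the HFD arrays. It fell by 0.53 ± 0.15 relative to HFD liver (adjusted p = 0.044). The call was lost in 10 of 19 alternatives, including 6 that left out an array: ND liver replicate 2, HFD liver replicate 2 or 3, or LU liver replicate 1, 2 or 3 (adjusted p = 0.054 to 0.13). Against ND liver the drop was 1.37 ± 0.15 (adjusted p = 0.00019), 2.59-fold lower in LU liver.

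Abcg1 read 7.56, 7.14 and 7.53 in LU liver and Scarb1 read 7.84, 7.71 and 7.93. Both overlapped their HFD arrays. For LU against HFD, Abcg1 differed by 0.00 ± 0.14 (95% interval -0.32 to 0.32) and Scarb1 by 0.03 ± 0.07 (95% interval -0.14 to 0.19). Lcat read 12.84, 12.89 and 13.09 in LU liver and differed from HFD liver by 0.09 ± 0.09 (adjusted p = 0.53). The other Lcat probe differed by -0.04 ± 0.09 (adjusted p = 0.82 over all detected probes). Of the macrophage markers, 1 of 12 passed for LU against HFD in liver, which was Mrc1, lower by 0.56. Other cell markers moved between these diets in liver. Of Kupffer cell markers 3 of 5 fell with luteolin relative to HFD, with a median of -0.59 beside 0.03 over all genes. Endothelial markers were lower for 5 of 7 (median -0.39), and lipid-associated macrophage markers were higher for 2 of 5 (median 0.69). Their part in the LU differences of Pltp and the other members was not tested.

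The Nr1h3 probes disagreed. The brighter one read 12.34, 12.34 and 12.38 in LU liver, above all HFD arrays, with a difference of 0.15 ± 0.06 that did not pass (adjusted p = 0.10). The dimmer one read 6.80, 7.08 and 6.85 in LU liver, against 7.53, 7.44 and 7.37 in HFD liver and 7.61, 7.47 and 7.41 in ND liver. On that probe LU liver was lower than HFD liver by 0.53 ± 0.10 (adjusted p = 0.0069 over all detected probes) and lower than ND liver by 0.58 ± 0.10 (adjusted p = 0.0014), so no direction is given for Nr1h3.

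For LU against ND liver, 5 of 7 members passed, against 41.1% of all genes. Abcg8 was higher by 1.82 ± 0.10, 3.52-fold, and Abcg5 by 1.70 ± 0.06, 3.24-fold. Abcg1 was higher by 0.76 ± 0.14 and Scarb1 by 0.46 ± 0.07, and Pltp was lower as given above. Their adjusted p-values ran between 8.0e-07 for Abcg5 and 0.0028 for Abcg1.

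In epididymal fat, Pltp and Abcg1 were higher with high-fat feeding, and Pltp was lower with luteolin than without it. Pltp was 2.75-fold higher in HFD than in ND fat and 1.84-fold lower in LU than in HFD fat. Lcat, Abcg8 and Abca1 were not detected on any fat array. Of the 5 tested members, 3 passed for HFD against ND, against 45.4% of all genes in fat. Of these members 2 rose, against 21.5% of all genes, and 1 fell, against 23.9%. The member that fell, Abcg5, was kept for testing through the ND arrays alone, where it is higher, so nothing is read from its call or from these counts.

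Pltp read 10.06, 10.07 and 10.05 in HFD fat, against 8.62, 8.56 and 8.63 in ND fat. The arrays of the same diet hardly differed, and the difference was 1.46 ± 0.05 (adjusted p = 6.2e-07). Abcg1 read 10.48, 10.43 and 10.33 in HFD fat and 9.64, 9.71 and 9.65 in ND fat. It also had no overlap, with a difference of 0.75 ± 0.07 (adjusted p = 3.1e-05), or 1.68-fold. HFD and ND fat arrays did not overlap for 53.0% of all genes.

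Macrophage markers moved in the same direction as Pltp and Abcg1. Of 12 tested in fat, 11 were higher in HFD than in ND fat, with a median difference of 1.07 beside -0.03 over all genes. Their summed signal was 98121 to 108663 in HFD fat and 46459 to 54107 in ND fat. Of 6 tested markers of lipid-associated macrophages, such as Trem2 and Gpnmb, 6 were higher, with a median of 2.99, while 5 of 7 adipocyte markers were lower and 1 higher. Fibroblast markers were higher for 4 of 7 (median 0.35), and 4 of 4 mesothelial markers were lower (median -0.75). Of 6 epididymis and testis markers 1 was tested, and it was higher by 1.69. Its signal was 326 to 1200 in HFD fat and 124 to 222 in ND fat. The part of these cells in the Pltp and Abcg1 differences was not tested.

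Abcg5 was near background in fat and was detected on 1 LU, 1 HFD and 3 ND arrays. It read 6.01, 6.16 and 5.88 in HFD fat and 6.20, 6.26 and 6.26 in ND fat. The difference of -0.23 ± 0.08 passed (adjusted p = 0.041) but was lost in 17 of 18 alternatives, including 8 of the 9 that left out an array. Without the background correction it was -0.07 (adjusted p = 0.24), and without HFD fat replicate 3 it was -0.16 (adjusted p = 0.13).

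Scarb1 read 6.89, 6.65 and 6.67 in HFD fat and 5.63, 6.92 and 6.05 in ND fat. ND replicate 2 was above all HFD arrays, and the other ND arrays were not detected. The difference of 0.54 ± 0.28 did not pass (adjusted p = 0.14, 95% interval -0.08 to 1.16), and without ND fat replicate 2 it was 0.90 (adjusted p = 0.0041). Nr1h3 read 11.76, 11.86 and 11.87 in HFD fat and 11.83, 12.04 and 12.13 in ND fat. The arrays overlapped and the difference of -0.17 ± 0.08 did not pass (adjusted p = 0.12), but without ND fat replicate 1 it was -0.26 (adjusted p = 0.018). The dimmer Nr1h3 probe differed by 0.10 ± 0.11 (adjusted p = 0.50 over all detected probes), opposite in sign.

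**Figure D2:**
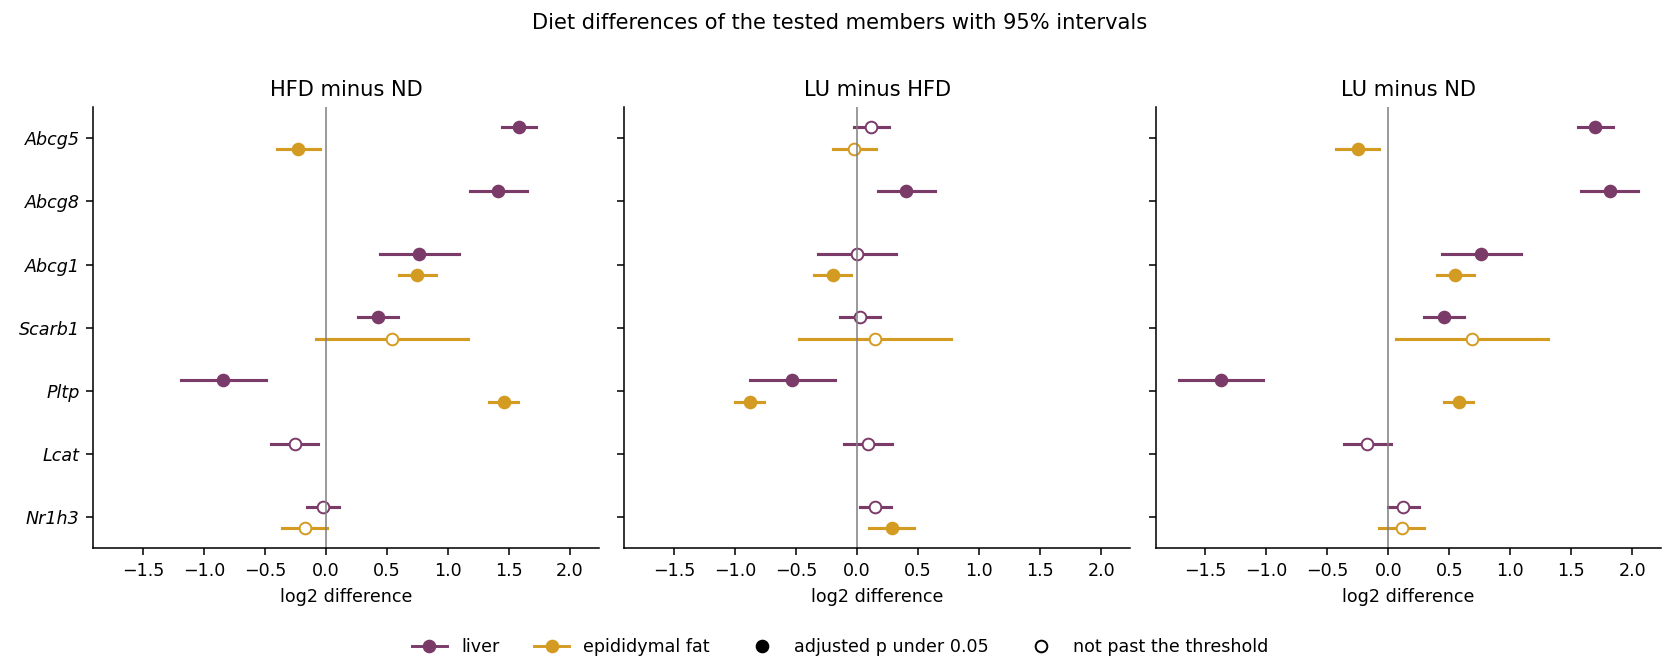
Log2 differences (horizontal axis) of the tested members for HFD minus ND, LU minus HFD and LU minus ND, with 95% intervals; liver is drawn above fat for each gene, and filled points passed an adjusted p of 0.05. For HFD minus ND, Pltp lies at -0.84 in liver and at 1.46 in fat, while Abcg1 lies at 0.76 and 0.75.

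With luteolin, 3 of 5 members passed in fat for LU against HFD, against 31.8% of all genes. LU and HFD fat arrays did not overlap for 54.0% of all genes, and LU and ND fat arrays for 48.5%. Pltp read 9.20, 9.16 and 9.18 in LU fat, below every HFD array and above every ND array. It fell by 0.88 ± 0.05 relative to HFD fat (adjusted p = 5.9e-05), and it was higher than in ND fat by 0.58 ± 0.05 (adjusted p = 0.00011). These calls held in all alternatives.

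Abcg1 read 10.31, 10.17 and 10.16 in LU fat, below the HFD arrays by a narrow margin. It fell by 0.20 ± 0.07 (adjusted p = 0.049). The call was lost in 11 of 19 alternatives, including those without ND fat replicate 1 or 3, HFD fat replicate 1 or 2, or LU fat replicate 2 or 3 (adjusted p = 0.055 to 0.15). Against ND fat, Abcg1 was higher by 0.55 ± 0.07 (adjusted p = 0.00047).

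Nr1h3 read 12.07, 12.16 and 12.10 in LU fat, above all HFD arrays. The difference was 0.28 ± 0.08 (adjusted p = 0.028), and it was lost without HFD fat replicate 1 or 2 or LU fat replicate 1, 2 or 3 (adjusted p = 0.058 to 0.095). The dimmer Nr1h3 probe differed by -0.20 ± 0.11 (adjusted p = 0.20 over all detected probes), opposite in sign. Against ND fat the brighter probe differed by 0.11 ± 0.08 (adjusted p = 0.33). The dimmer one differed by -0.10 ± 0.11 (adjusted p = 0.51 over all detected probes).

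Scarb1 read 7.11, 6.58 and 6.96 and Abcg5 5.92, 6.01 and 6.05 in LU fat. Relative to HFD fat, Scarb1 differed by 0.15 ± 0.28 and Abcg5 by -0.02 ± 0.08, and neither passed. For LU against ND fat, 3 of 5 members passed, against 33.3% of all genes: Pltp and Abcg1 were higher and Abcg5, near background, was lower by 0.25 ± 0.08 (adjusted p = 0.037). Here too Abcg5 entered through the ND arrays, and nothing is read from the count. The Abcg5 call was lost in 12 alternatives, including those without ND fat replicate 2 or 3, HFD fat replicate 1, or LU fat replicate 1, 2 or 3 (adjusted p = 0.052 to 0.13). Scarb1 differed by 0.69 ± 0.28 (adjusted p = 0.084), and by 1.05 (adjusted p = 0.0039) without ND fat replicate 2.

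In LU fat, 12 of 12 tested macrophage markers were lower than in HFD fat, with a median of -0.74 beside 0.02 over all genes. Their summed signal was 65393 to 71588 in LU fat, against 98121 to 108663 in HFD fat. Of 6 lipid-associated macrophage markers 4 were lower, and 4 of 7 adipocyte markers were higher. Fibroblast markers were lower for 5 of 7 (median -0.59) and mesothelial markers for 2 of 4 (median -0.47). The tested epididymis and testis marker differed by -1.05 and did not pass. The part of all these cells in the lower Pltp and Abcg1 was not tested.

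**Figure D3:**
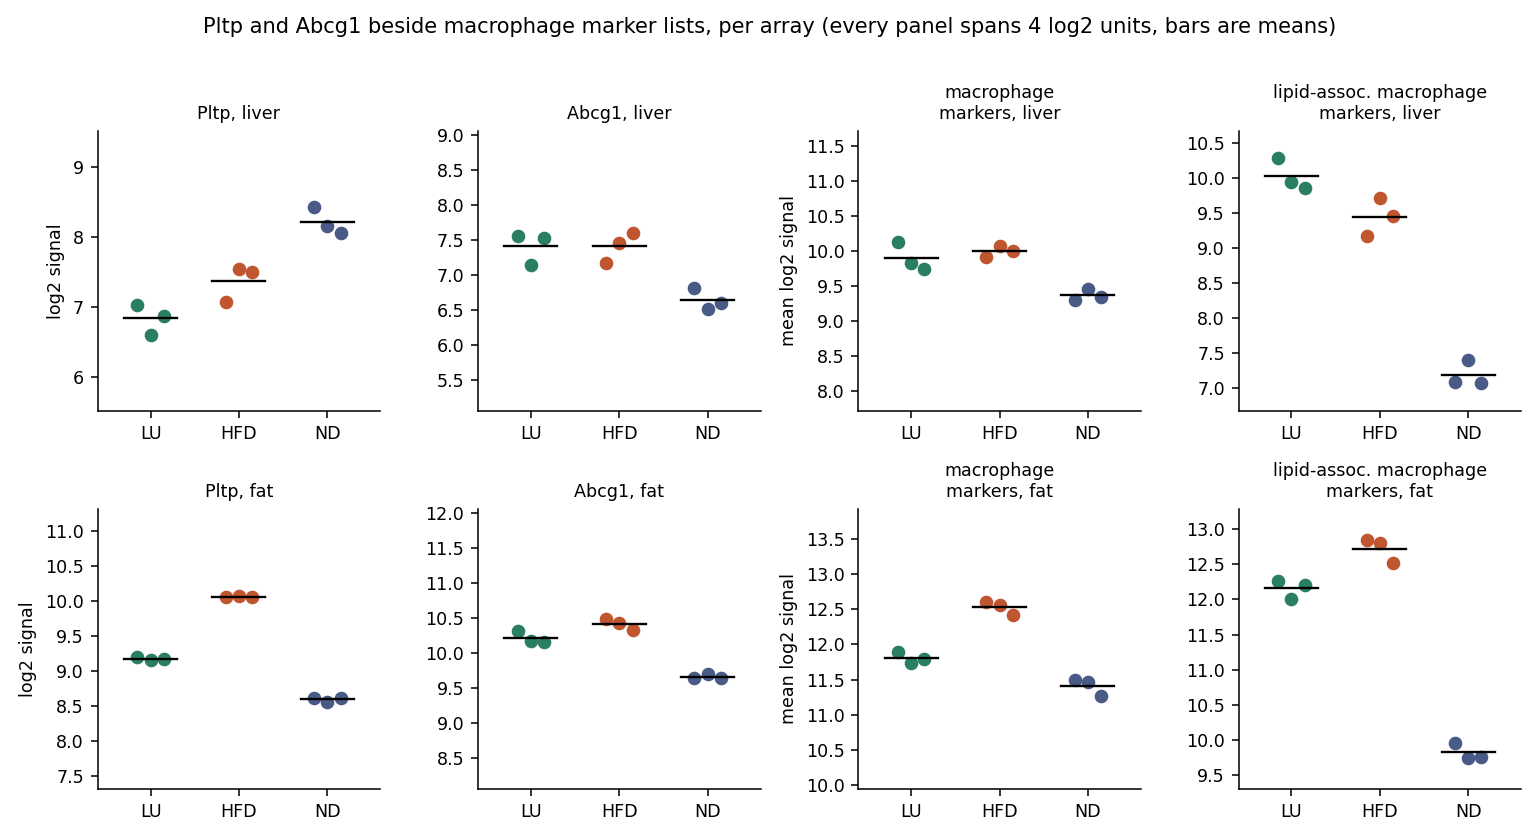
Log2 signal of Pltp and Abcg1 beside the mean log2 signal of 2 macrophage marker lists on each array, in liver (upper row) and fat (lower row), with arrays of LU, HFD and ND mice as points and means as bars. In fat, Pltp and the macrophage markers have the same order of diets, HFD above LU above ND. In liver, Pltp is lowest and the lipid-associated markers are highest in LU arrays.

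Set against each other, the tissues held the members at different levels. Abcg5, Abcg8 and Lcat were far higher in liver than in fat, Scarb1 and Nr1h3 were moderately higher, and Abcg1 was higher in fat. These differences come from the 18 arrays normalized together. Under each diet 7 of 7 members passed, against 84.7% of all genes in LU mice, 85.3% in HFD mice and 85.7% in ND mice, so the number that passed is close to that background. The median of all genes was -0.11, -0.14 and -0.14 in LU, HFD and ND mice.

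Abcg8 averaged 13.87 ± 0.19 in LU liver (SD, n = 3 here and below), 13.52 ± 0.11 in HFD liver and 12.26 ± 0.03 in ND liver. In fat it was below detection, at 4.96, 5.03 and 4.93 for those diets. Taking for each fat array the higher of its lowest detected signal and the probe's own, Abcg8 was at least 276-fold higher in liver under LU, at least 215-fold under HFD and at least 88.4-fold under ND. Lcat, at 13.09 ± 0.11, 13.02 ± 0.10 and 13.24 ± 0.04 in LU, HFD and ND liver, was at least 160.4-fold, 152-fold and 174-fold higher than in fat on its brighter probe, and at least 94.6-fold, 96.6-fold and 104.6-fold on the other. On the tested probes the adjusted p-values were between 2.5e-20 and 3.0e-19. Both genes were kept for testing through the liver arrays alone, where they are higher, so nothing is read from these p-values or calls.

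Abcg5 was 14.29 ± 0.04, 14.17 ± 0.04 and 12.77 ± 0.04 in LU, HFD and ND liver, against 5.74 ± 0.05, 5.76 ± 0.11 and 5.93 ± 0.03 in fat. The liver minus fat differences were 8.55, 8.42 and 6.84 (SE 0.06 each), and those for LU and HFD rest on fat arrays of which 1 of 3 detected the probe under each diet. Scarb1 differed by 1.91, 2.01 and 2.02 (SE 0.18 each), with 2 ND fat arrays undetected. Nr1h3 differed by 0.77, 0.93 and 0.77 (SE 0.07 each), and its dimmer probe was also higher in liver, by 0.97, 1.32 and 1.46.

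Abcg1 was 7.95 ± 0.23, 7.95 ± 0.21 and 7.19 ± 0.16 in LU, HFD and ND liver, against 9.77 ± 0.09, 9.97 ± 0.08 and 9.19 ± 0.04 in fat. It was lower in liver than in fat by 1.82, 2.02 and 2.01 (SE 0.12 each), which is 3.53-fold, 4.06-fold and 4.02-fold. Macrophage markers were also dimmer there, with a summed signal of 16586 to 29443 over the liver arrays and 38852 to 102829 over the fat arrays. Kupffer cell markers were instead higher in liver, 4 of 5 under LU, 5 of 5 under HFD and 5 of 5 under ND, with medians of 1.46, 1.08 and 1.04. The part of these cells in the Abcg1 difference was not tested.

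Pltp changed its order with diet. It was 7.39 ± 0.22, 7.92 ± 0.25 and 8.72 ± 0.18 in LU, HFD and ND liver, against 8.67 ± 0.02, 9.61 ± 0.01 and 8.06 ± 0.04 in fat. The liver minus fat differences were -1.28 ± 0.12 under LU (SE, adjusted p = 3.7e-08), -1.69 ± 0.12 under HFD (adjusted p = 9.7e-10) and 0.65 ± 0.12 under ND (adjusted p = 8.8e-05). The ND direction depended on scaling: it was -0.12 (adjusted p = 0.41) with median scaling and -0.026 (adjusted p = 0.85) with the tissues normalized separately.

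**Figure D4:**
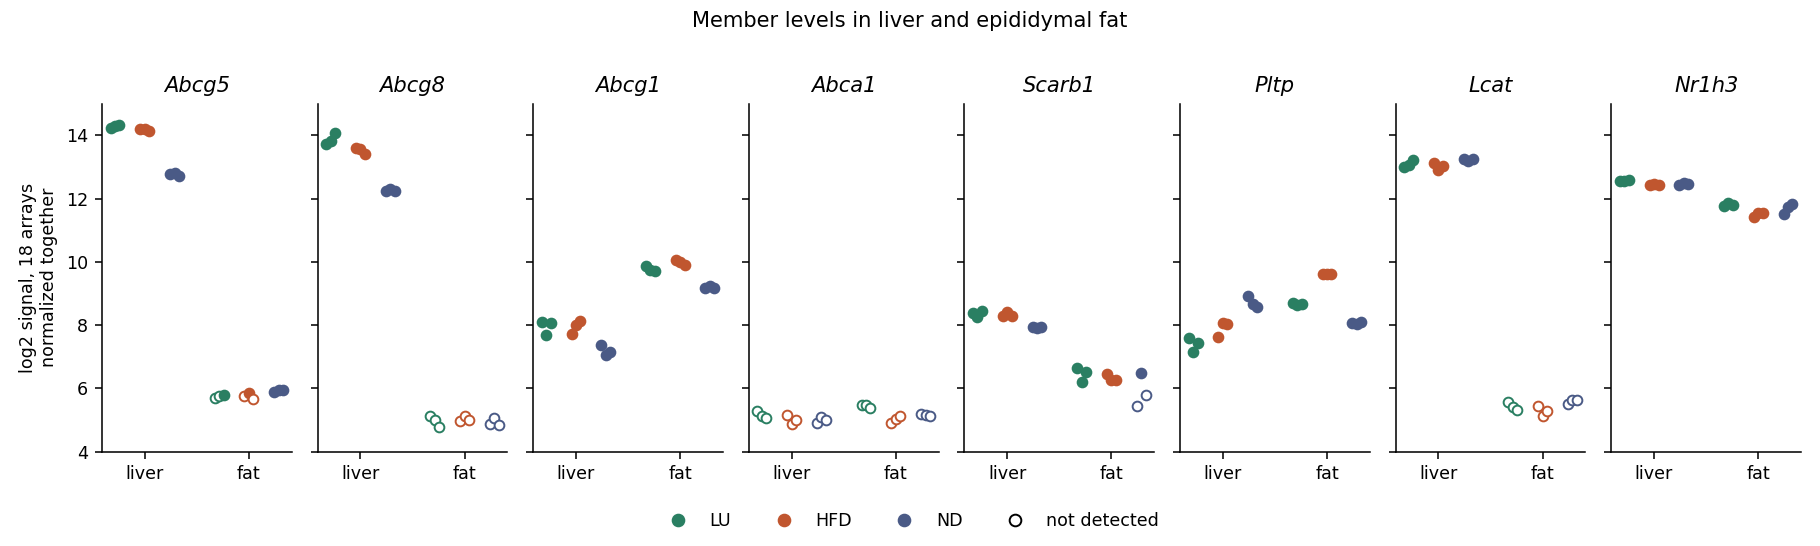
Log2 signal of the 8 members in liver and fat with all 18 arrays normalized together; colours give LU, HFD and ND, points are arrays and open points are undetected. Abcg5, Abcg8 and Lcat fill the upper range in liver and the background range in fat, Abcg1 is higher in fat, and Abca1 lies in the background range in both.

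The HFD minus ND difference in liver was also tested less that in fat, and 3 of 7 members passed, against 31.7% of all genes. Of these 3, Pltp was the member detected on every array of both tissues. Pltp gave -2.35 ± 0.17 (adjusted p = 1.3e-07), being lower with high-fat feeding in liver and higher in fat. Abcg5 gave 1.58 ± 0.09 (adjusted p = 9.8e-09) and Abcg8 1.16 ± 0.14 (adjusted p = 2.4e-05). Abcg8 was undetected on every fat array and Abcg5 was detected on 1 of 3 HFD fat arrays, so both values mostly repeat the liver difference and do not show that their response differed between tissues. Abcg1 gave -0.01 ± 0.17, with a 95% interval of -0.37 to 0.34, and Scarb1, Lcat and Nr1h3 gave -0.01, 0.09 and 0.16 and did not pass. Lcat was undetected on every fat array and Scarb1 was detected on 1 of 3 ND fat arrays. The values of Lcat and Scarb1 therefore do not show that the tissues responded alike. Without ND fat replicate 1, Nr1h3 gave 0.25 (adjusted p = 0.037). On the dimmer Nr1h3 probe, the value with all arrays was -0.13 ± 0.14 (adjusted p = 0.53 over all detected probes), opposite in sign.

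For the response to luteolin, LU minus HFD in liver less that in fat, 0 of 7 members passed in limma, against 15.9% of all genes. At an unadjusted p under 0.05 there were 2, Abcg8 with 0.43 ± 0.14 (adjusted p = 0.054) and Pltp with 0.41 ± 0.17 (adjusted p = 0.11). The fat term of Abcg8 is background signal, so its value mostly repeats the liver difference, also where it passed without LU liver replicate 1, ND fat replicate 2 or LU fat replicate 1 (adjusted p = 0.038 to 0.046). Pltp passed without LU liver replicate 2 (0.53, adjusted p = 0.042).

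Other genes of the pathway were followed in 5 lists: other LXR targets, LXR partners and cofactors, HDL proteins, cholesterol storage and release, and oxysterol enzymes. In HFD against ND liver, 5 of 12 tested LXR targets rose and 1 fell, with a median of 0.25 beside 0.00 for all genes. Of all genes, 17.9% rose and 12.4% fell in that comparison. Lpl, which hydrolyses lipoprotein triglyceride, rose by 2.26 ± 0.14 (adjusted p = 1.6e-05). Srebf1, which encodes a regulator of fatty acid synthesis, rose by 1.30 ± 0.11 (adjusted p = 8.0e-05). Smpdl3a rose by 0.29, while Apoc2 fell by 0.31 with its other probe at 0.08. Endothelial, fibroblast and macrophage markers rose in the same comparison, 5 of 7, 5 of 7 and 10 of 12. Lipid-associated macrophage markers rose for 4 of 5, with a median of 1.86, and the part of all these cells in Lpl and the other targets was not tested.

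Among HDL genes in HFD liver, 3 of 7 fell and 4 did not pass, with a median of -0.01. These were Apom, an HDL apolipoprotein, by 0.99 ± 0.12 (adjusted p = 0.00052), Apoa4 by 0.81 and Pctp by 0.58. Of 7 storage and release genes 2 fell, with a median of -0.04: Stard4, which carries cholesterol inside cells, by 1.30 ± 0.21 (adjusted p = 0.0023), and Nceh1 by 0.42. Of 4 oxysterol enzymes 2 fell, with a median of -0.57: Cyp39a1 by 1.11 ± 0.21 and Cyp7b1 by 1.04 ± 0.25, both of which hydroxylate oxysterols on the way to bile acids. Among 6 partners, Rxrb fell by 0.24 and Med1 rose by 0.50, with the other Med1 probes at 0.16 and -0.04 and a list median of -0.09. These list counts stand beside 12.4% of all genes that fell and 17.9% that rose.

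In LU against HFD liver, Lpl rose by 0.51 ± 0.14 and Smpdl3a fell by 0.44 ± 0.08. These were the 2 of 12 LXR targets that passed, with a list median of -0.01. Since 17.1% of all genes passed in that comparison, the count is near the background. The lipid-associated macrophage markers, 2 of 5 higher, moved with Lpl here too, and their part was not tested. Npc1, which releases cholesterol from lysosomes, rose by 0.45 ± 0.07 (adjusted p = 0.0054), 1 of 7 in its list with a median of 0.28. Gps2, of the partners, rose by 0.32 and Pctp fell by 0.39, each the single gene passing in its list, with medians of 0.06 and -0.10. The 4 oxysterol enzymes had adjusted p-values of 0.17 to 0.93, for Cyp27a1 and Hsd3b7 at the ends and Cyp7b1 and Cyp39a1 between, with a median of -0.09 beside 0.03 for all genes.

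Of the storage and release genes in fat, for HFD against ND, 4 of 7 rose, with a median of 0.52 beside -0.03 for all genes. Nceh1, a cholesteryl ester hydrolase, rose by 2.33 ± 0.11 (adjusted p = 8.5e-07) and Lipa, the lysosomal acid lipase, by 1.69 ± 0.09 (adjusted p = 1.2e-06). Stard3 rose by 0.57 and Npc2 by 0.52. For LU against HFD, 3 of the 7 fell: Nceh1 by 0.67 ± 0.11, Lipa by 0.59 ± 0.09 and Stard3 by 0.46 ± 0.10, with the other Stard3 probe at -0.12 and a median of -0.11. The macrophage markers given above moved in the same directions in both comparisons, and their part was not tested. Of all genes in fat, 21.5% rose for HFD against ND and 15.5% fell for LU against HFD.

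Of the partners of LXR in fat, the 3 retinoid X receptors fell for HFD against ND, 3 of 6 in the list with a median of -0.28. Rxra fell by 0.96 ± 0.09 (adjusted p = 3.8e-05), Rxrg by 0.44 and Rxrb by 0.37. For LU against HFD, Rxra rose by 0.64 ± 0.09 (adjusted p = 0.0013), Rxrg by 0.48 and Rxrb by 0.22, with the other Rxrb probe at -0.32 and a list median of 0.14. Adipocyte markers moved the same way, 5 of 7 lower in HFD than in ND fat and 4 of 7 higher in LU than in HFD fat, and their part was not tested. Beside these counts, 23.9% of all genes were lower in HFD than in ND fat and 16.3% higher in LU than in HFD fat.

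The remaining fat lists were mixed. For HFD against ND, 1 LXR target rose and 2 of 11 fell (Smpdl3a 0.19, Mlxipl -0.48, Apoe -0.33), with a median of -0.02. Of 4 HDL genes Abca7 rose by 0.20, and Abcg4 fell by 0.66 and Apom by 0.64, with a median of -0.44. Of 4 oxysterol enzymes, Ch25h, which makes an oxysterol, rose by 0.79 ± 0.13 and Cyp7b1 by 0.65, while Cyp27a1 fell by 0.61 ± 0.07 and Hsd3b7 by 0.36, with a median of 0.15. For LU against HFD, Mlxipl rose by 0.70, Apoc1 by 0.41, Abcg4 by 0.65, Cyp27a1 by 0.39 and Hsd3b7 by 0.22, and Ch25h fell by 0.75 ± 0.13. The list medians were 0.12 for LXR targets, 0.40 for HDL genes and -0.04 for oxysterol enzymes. Over all genes in fat, 45.4% passed for HFD against ND and 31.8% for LU against HFD.

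**Figure D5:**
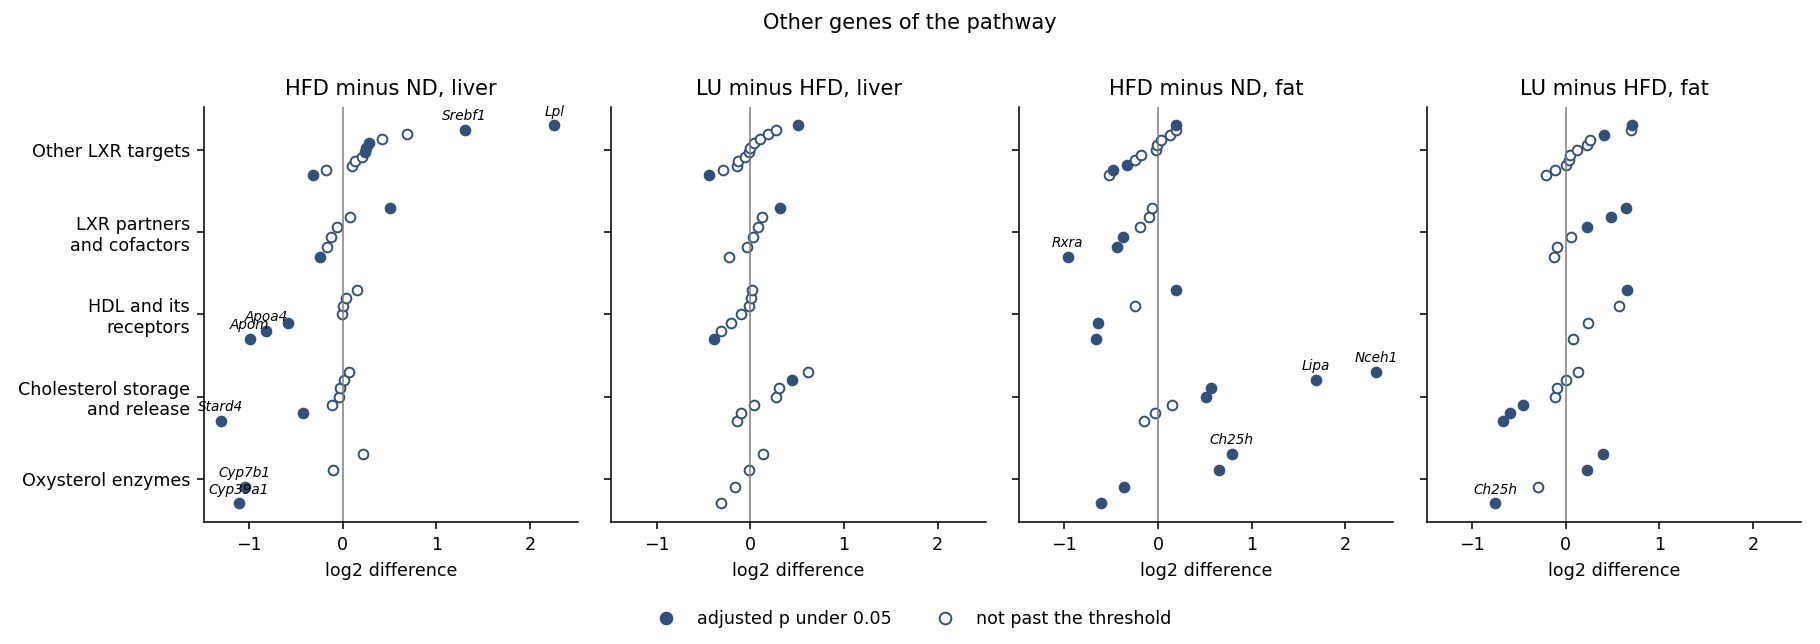
Log2 differences of the tested genes of the 5 pathway lists (rows) for HFD minus ND and LU minus HFD in liver and in fat; each point is a gene, filled points passed an adjusted p of 0.05, and passing genes beyond 0.75 in size are named. For HFD minus ND, Lpl lies at 2.26 in liver and Nceh1 at 2.33 in fat.

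Likeness to a member was measured as the root mean square difference over the 9 arrays of a tissue after each gene was centred on its own mean. In liver, the gene nearest to Abcg8 was Abcg5 (0.15), and those nearest to Abcg5 were Dync2li1 (0.12), Elmo1 (0.13) and Haus8 (0.14). The nearest to liver Pltp was Acpp (0.18), to Abcg1 Cyp2c70 (0.12) and to Scarb1 Plxna2 (0.051). In fat, Gpr65 (0.072), Ms4a6d (0.091) and P2ry6 (0.093) were nearest to Pltp, Abr (0.042) and Coro1c (0.045) to Abcg1, and Pitpnm2 (0.040) to Nr1h3. Arrays of a diet share its mean, so these distances mostly compare the diet means.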

How the data were processed

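Per the labels' protocols, 550 ng of total RNA per array was amplified to biotin-labelled cRNA. Per the file headers, the deposited tables give a mean signal intensity and a detection p-value for every probe on every array. GenomeStudio 2009.2 and R 2.4.1 are listed in the submitters' processing notes. The authors' matrix of log2 values for 28721 probes served as an alternative, and its normalization method is not given in the sources used here.

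In limma 3.58.1 (R 4.3.3), the arrays of each tissue were background corrected from the detection p-values, given an offset of 16, quantile normalized and taken to log2 (neqc). Of several probes of a gene, the brightest was tested, and values of the others are given for some comparisons. Names came from GEO's platform annotation, with 1 gene for 22883 probes and several for 13. Linear models with empirical Bayes moderation were fitted to the 9 arrays of a tissue, or to all 18 for tissue differences and their interaction with diet, with Benjamini-Hochberg adjustment over all tested genes. Promoter windows came from RefSeq (GRCm38.p6).

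The members and gene lists were chosen with earlier results of these data known, and list counts are descriptions. Named were all members, up to 4 passing genes per list with the largest differences, and up to 3 genes nearest in pattern. Alternatives changed background correction, normalization, filter, probe choice, moderation, arrays in the fit, the replicate block, or left out each array. Samples were treated as unpaired.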

Additional observations from a re-analysis of the deposited data

Results flagged for a closer look

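The HFD minus ND difference in liver less that in fat passed the interaction test in limma for 3 members. Pltp gave -2.35, the HFD minus ND difference being negative in liver and positive in fat. Abcg5 gave 1.58 and Abcg8 gave 1.16, but Abcg8 was undetected on every fat array and Abcg5 was detected on 1 of 3 HFD fat arrays, so these values mostly repeat the liver difference and do not show that the response differed. In the setting with a detection p under 0.01 required on all 18 arrays, Abcg5 and Abcg8 were not tested, and Pltp was the member that passed.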

How the results depend on the processing

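There were 1595 comparisons of a value with its alternative, across 71 member differences. Of these, 1512 kept their side of the threshold, 61 lost the call, 20 gained it and 2 reversed. A reversal is a change of sign where the value or its alternative passed. Signs were not compared where neither passed. Both reversals were Pltp in liver against fat of ND mice, -0.12 with median scaling and -0.026 with the tissues normalized separately, where the medians of all genes were -0.61 and -0.56. For LU against HFD liver, the 2 passing members became 0 with median scaling, 0 with the replicate block, 1 with no detection filter and 1 with the 6 compared arrays alone. The strict filter left 2 passing members in each liver against fat comparison and 1 for the tissue difference in HFD response, because fewer members were tested. For the tissue difference in LU response the count went to 2 without background correction and to 1 with cyclic loess, with trend and robust moderation, and with the tissues normalized separately.

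With 1 array left out, passing members numbered 2 to 3 in fat for HFD against ND, 1 to 3 for LU against HFD and 2 to 3 for LU against ND. In liver they numbered 5 to 6 for HFD against ND, 0 to 2 for LU against HFD and 5 for LU against ND. They were 7 in each tissue comparison, 3 to 4 for the tissue difference in HFD response and 0 to 1 for that in LU response. The count of all genes passing for LU against HFD in liver, 1526 in the reported setting, fell to between 758 and 969 without an HFD or LU array. Without LU fat replicate 2, 2136 genes passed for LU against HFD in fat, against 3259 with it, and without LU fat replicate 1, 2239 passed for LU against ND, against 3405. Replicate numbers did not meet the pairing criterion, a correlation of deviations over 0.1 in every pair: the correlations ran between -0.16 and 0.19 in liver, -0.08 and 0.10 in fat, and -0.08 and 0.14 between liver and fat arrays of a diet, where 2 of 9 pairs were over 0.1. A slide block was not run, since the headers give no slide. The causes of these changes were not tested, apart from the filter. Probes near background, such as Abcg5 and Scarb1 in fat, limit what can be said of those members.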

Other observations

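The gene nearest in pattern to Abcg5 in liver was also its neighbour. Dync2li1, which encodes a light intermediate chain of the ciliary dynein motor, is the next protein-coding gene beside Abcg5 on chromosome 17 in the GRCm38.p6 annotation. It read 7.82, 7.84 and 7.90 in LU liver and 7.76, 7.65 and 7.87 in HFD liver, against 6.36, 6.38 and 6.33 in ND liver. Those ND arrays were close to background (detection p 0.017, 0.021 and 0.029), where the offset makes a difference smaller than the change in RNA. The sizes are therefore not directly comparable with those of the bright Abcg5 and Abcg8. The HFD minus ND difference was 1.40 ± 0.07 (limma, adjusted p = 5.4e-06), beside 1.58 ± 0.06 for Abcg5 and 1.41 ± 0.10 for Abcg8, and the LU minus HFD difference was 0.10 ± 0.07 (adjusted p = 0.37).

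On the other side of the pair, Lrpprc differed between HFD and ND liver by -0.18 ± 0.08 (adjusted p = 0.11) and Ppm1b, the gene after it, by 0.10 ± 0.06 (adjusted p = 0.27). Another Lrpprc probe read 8.63, 8.50 and 8.60 in HFD liver, against 9.05, 9.07 and 8.87 in ND liver, which do not overlap and were not tested. Plekhh2, on the far side of Dync2li1, was not detected in liver. In fat, where Abcg5 was near background and Abcg8 below it, Dync2li1 was detected on every array and differed by -0.25 between HFD and ND fat (adjusted p = 0.045). Lrpprc differed there by -0.37 (adjusted p = 0.0043) and Ppm1b by -0.44 (adjusted p = 0.00051). The neighbours were looked up after Dync2li1 had come out nearest, so these values are a description.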
